A study of Mus musculus with 2 samples.

Results

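Fc receptors are the cell surface and intracellular proteins that bind the constant part of antibodies, and the 10 mouse genes described here are Fcgr1, Fcgr3, Fcgr4, Fcer1g, Fcgr2b, Fcer2a, Fcrl1, Fcrla, Fcmr and Fcgrt. They were taken by gene symbol from the 20938 genes of the deposited tables, and all 10 were present and above 0 in both libraries. The measurement was RNA sequencing of splenic Treg cells, the Foxp3+ CD4+ T cells that restrain immune responses, on day 7 after an islet allograft without antibody treatment. BALB/c islets had been placed under the kidney capsule of streptozotocin-diabetic recipients of C57BL/6J background. One group was Foxp3-Mettl14f/+ cKO mice, which carry 1 floxed allele of Mettl14, a subunit of the RNA m6A methyltransferase, and Cre driven by Foxp3, so that the allele is lost in Foxp3+ cells. The other group was littermate controls, given in the study's methods as Mettl14f/f. The sample records name the genotypes differently, as wild type and Foxp3 knockdown. Each group had 1 library, called here the control library and the cKO library. The number and age of the mice behind each library were not given in the sources used here. The cells had been enriched on magnetic beads, first by depleting cells that were not CD4+ and then by selecting CD25+ cells.

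Fc receptors couple antibody to the cells that carry them. Activating receptors for IgG (Fcgr1, Fcgr3, Fcgr4) have no signalling tail of their own and act through the Fc gamma chain encoded by Fcer1g, whose tyrosine motif (ITAM) recruits the kinase Syk. Fcgr2b encodes the inhibitory IgG receptor of B cells and myeloid cells, whose tail carries an inhibitory motif (ITIM) that recruits the lipid phosphatase encoded by Inpp5d. Fcer2a (CD23, the low-affinity IgE receptor), Fcrl1, Fcrla and Fcmr (the IgM receptor) are best known from B cells, and Fcgrt encodes the neonatal receptor that, together with beta-2 microglobulin, recycles IgG inside endothelial and myeloid cells. T cells, Treg cells among them, are known for carrying few of these receptors.

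The members lie in a small number of places in the genome (GRCm38, the assembly also called mm10). Fcgr2b (chr1:170958617-170976547), Fcgr4 (chr1:171018920-171029761), Fcgr3 (chr1:171051174-171064935), Fcer1g (chr1:171229572-171234365) and Fcrla (chr1:170917576-170927583) are neighbours on chromosome 1, and Fcmr (chr1:130865669-130880791) is on the same chromosome. Fcgr1 (chr3:96282909-96293969) and Fcrl1 (chr3:87376387-87402934) are on chromosome 3, Fcer2a (chr8:3681737-3694175) is on chromosome 8 and Fcgrt (chr7:45092990-45103851) is on chromosome 7. All 10 are annotated as protein-coding in GENCODE vM21. Fcgr2b and Fcgr3 are close relatives, and 12.8% of the 50-base stretches of the longest coding transcript of Fcgr3 also occur in transcripts of Fcgr2b, whereas 4.75% of those of Fcgr2b occur in Fcgr3. Their longest shared run, 129 bases of coding sequence across 2 exons, is printed because reads that fall inside it cannot be assigned to either gene by sequence. In Fcgr2b it covers chr1:170967980-170968081 and chr1:170966674-170966700 on the minus strand, and in Fcgr3 chr1:171057691-171057792 and chr1:171054167-171054193.
Fcgr2b and Fcgr3: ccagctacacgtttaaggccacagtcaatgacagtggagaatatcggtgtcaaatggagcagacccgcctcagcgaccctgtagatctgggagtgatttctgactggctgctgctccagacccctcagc
How the authors' counting treated such reads was not given in the sources used here, so both genes are also given as a sum. No 50-base stretch of Fcgr1, Fcgr4, Fcer1g, Fcrl1, Fcrla, Fcmr or Fcgrt occurred in a transcript of another gene.

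Because members of different roles were all higher in the cKO library (values follow), their promoters were read for short motifs of blood cell transcription factors. The windows were RefSeq promoters of GRCm38.p6, from 250 bases before to 50 bases after each start, searched on both strands. The letters GAGGAA, the core bound by the myeloid and B cell factor PU.1, were found in 6 of the 10 members (Fcgr1, Fcgr3, Fcgr4, Fcrl1, Fcrla and Fcmr) and in 28.3% of all 32851 windows. The letters CCCNNGGG, the core of the B cell factor EBF1, were found in Fcgr3 and Fcgrt and in 13.7% of all windows, and the octamer ATGCAAAT was found in 0 of the 10 members and in 1.74% of all windows. A member was counted when any of its windows matched, whereas the shares are of single windows, so the counts and shares are not like for like. Genes with several starts, such as Fcgr3, had more chances to match. No match overlapped another motif. The 60 bases around the match are printed for 5 members because 3 encode activating receptors and 2 belong to the B-restricted members, and the match lay within 50 bases before a RefSeq start in each. The capitals mark the match, which reads TTCCTC when the gene's own strand is written 5′ to 3′. The Fcgr3 window lies at an internal start, since GENCODE also has a transcript of this gene that begins farther upstream. The Fcmr match lay 31 bases before its RefSeq start, and its window is not printed because all 60 bases lie inside the first exon of a GENCODE transcript.
Fcgr1, chr3:96293992-96294051, minus strand: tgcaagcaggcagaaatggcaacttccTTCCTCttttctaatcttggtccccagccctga
Fcgr3, chr1:171059377-171059436, minus strand: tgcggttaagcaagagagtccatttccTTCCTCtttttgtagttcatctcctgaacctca
Fcgr4, chr1:171018877-171018936, plus strand: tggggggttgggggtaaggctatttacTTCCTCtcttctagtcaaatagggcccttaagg
Fcrl1, chr3:87376347-87376406, plus strand: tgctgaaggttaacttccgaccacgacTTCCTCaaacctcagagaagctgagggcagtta
Fcrla, chr1:170927588-170927647, minus strand: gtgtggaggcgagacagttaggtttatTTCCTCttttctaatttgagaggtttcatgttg
A match is a string of letters and was not tested as a binding site.

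The libraries held 20239325 reads (control) and 18327535 reads (cKO) assigned to genes, and the 10 members together had 6172 and 14026 of them. Values are given as reads, with the smallest value above 0 of each library taken as 1 read, and as deposited levels, which are reads divided by a size factor of the library. Ratios are log2((cKO level + 1) / (control level + 1)), and the interval beside each is an exact 95% Clopper-Pearson interval that covers counting error only. With 1 library per genotype there was no replicate check and no test between genotypes, and "higher" means higher in 1 library than in the other. Mettl14 had 948 reads in the control and 652 in the cKO library (log2 ratio -0.31, 95% interval -0.45 to -0.16), a difference that went to -0.0026 when 16 T cell core genes were set equal. Foxp3 had 1547 and 1361 reads (log2 ratio 0.05, 95% interval -0.06 to 0.15). Marker genes of other cells were present in both libraries: the 12 neutrophil markers, led by S100a9 and Ngp, had 262286 and 305780 reads, against 76352 and 52606 for the T cell core genes, led by Tcf7 and Cd4. The 12 B cell markers had 11043 and 43305 reads and the 17 macrophage markers 6260 and 17181. In bulk RNA, fewer cells of a type and less RNA per cell cannot be told apart. The cKO library also had more genes at 0, and 610 of the 1224 genes with 10 to 19 control reads were at 0 in it. The lowest read count of a member was 96, and 0 members were at 0.

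Every one of the 10 members was higher in the cKO library by 1.5-fold or more, from 1.73-fold for Fcgr3 to 5.86-fold for Fcer2a. Of the 16659 genes whose level averaged 1 or more over both libraries, 17.2% passed 1.5-fold in the same direction and 24.2% in the opposite one. The median log2 ratio of the members was 1.56, against -0.04 over all those genes. An exact binomial test on the reads, which compares these 2 libraries and not the genotypes, called all 10 members higher at an adjusted p under 0.1, beside 14.0% of genes higher and 17.9% lower of the 14863 genes with at least 10 reads. An exact test in edgeR, in which a biological coefficient of variation of 0.4 was assumed, called only Fcer2a among the members, beside 1.54% of genes higher and 3.83% lower. The members' direction was the same under each scaling run. Scaling both libraries to equal T cell core reads moved the all-gene median by 0.30 and turned the share of higher genes among those past 1.5-fold from 41.6% to 59.4%. With that scaling the members' log2 ratios ran from 1.10 (Fcgr3) to 2.86 (Fcer2a).

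**Figure D1:**
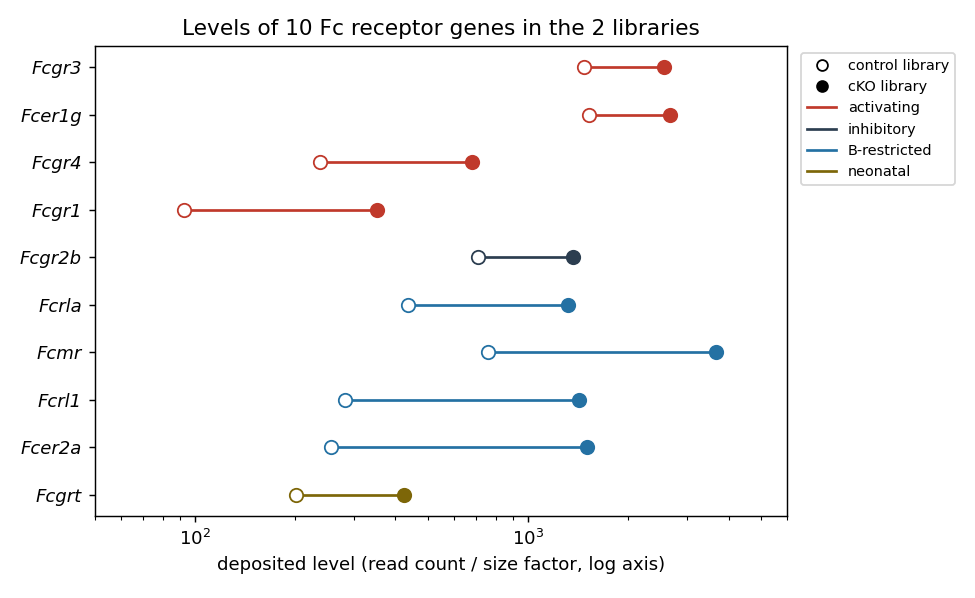
Deposited level (read count divided by the size factor of the library, log axis) of each of the 10 genes in the control library (open circles) and the cKO library (filled circles), coloured by class. Each gene has 1 value per library and the filled circle lies to the right in all 10, with the longest lines for Fcer2a (256 to 1508) and Fcrl1 (282 to 1418).

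The activating members were higher in the cKO library by unequal amounts. Fcer1g, the shared signalling chain, had 1574 reads in the control and 2351 in the cKO library, levels of 1523 and 2673 (log2 ratio 0.81, 95% interval 0.72 to 0.91). Fcgr3, the low-affinity IgG receptor of NK and myeloid cells, had 1524 and 2244 reads, levels of 1474 and 2552 (0.79, 0.70 to 0.89). These are the most abundant of the activating members and their intervals overlapped. Fcgr4, an IgG2-binding receptor of monocytes, macrophages and neutrophils, had 245 and 597 reads, levels of 237 and 679 (1.51, 1.30 to 1.74). Fcgr1, the high-affinity IgG receptor of monocytes and macrophages, had 96 and 310 reads, levels of 92.9 and 353 (1.91, 1.59 to 2.27). The scarcer receptors thus had the larger ratios, and of all genes past the filter 5.33% had a higher ratio than Fcgr1 and 6.84% a higher ratio than Fcgr4, against 12.9% for Fcgr3 and 12.6% for Fcer1g. Within each library, which removes the size factor, Fcgr1 reads per Fcgr3 read went from 0.0630 in the control to 0.138 in the cKO library (log2 change 1.13, 95% interval 0.78 to 1.49), and Fcgr4 reads per Fcgr3 read from 0.161 to 0.266 (0.73, 0.49 to 0.97). The activating members had a median log2 ratio of 1.16, and their summed reads of 3439 and 5502 gave 0.91 (95% interval 0.85 to 0.97).

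The inhibitory receptor was higher in the cKO library by about as much as the activating sum. Fcgr2b had 733 reads in the control and 1203 in the cKO library, levels of 709 and 1368 (log2 ratio 0.95, 95% interval 0.81 to 1.08). Summed with Fcgr3, to avoid the assignment of shared reads, the counts were 2257 and 3447 (0.84, 0.77 to 0.92). There were 4.69 activating reads per Fcgr2b read in the control and 4.57 in the cKO library, and the interval of the log2 change (-0.19 to 0.11) included 0. For the 3 receptors alone, without the signalling chain, the ratio was 2.54 and 2.62 (log2 change 0.04, 95% interval -0.12 to 0.20). The sum covered unequal parts. Per Fcgr2b read, Fcgr1 went from 0.131 to 0.258 (0.98, 0.61 to 1.35) and Fcgr4 from 0.334 to 0.496 (0.57, 0.31 to 0.83). Fcgr3 went from 2.08 to 1.87 (-0.16, -0.32 to 0.01), an interval that included 0. Fcgr3 gave most of the reads of the 3 receptors in both libraries.

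Of the B-restricted members, 3 of 4 had larger ratios than every other member. Fcer2a, the low-affinity IgE receptor of follicular B cells, had 265 reads in the control and 1326 in the cKO library, levels of 256 and 1508 (log2 ratio 2.55, 95% interval 2.36 to 2.75). Fcrl1, an activating Fc receptor-like protein of B cells, had 291 and 1247 reads, levels of 282 and 1418 (2.33, 2.15 to 2.52). Fcmr, the IgM receptor, had 786 and 3213 reads, levels of 760 and 3654 (2.26, 2.15 to 2.38). These 3 genes were 4.80-fold to 5.86-fold higher, and between 3.30% and 4.33% of all genes had a higher ratio. Fcrla, an intracellular Fc receptor-like protein of B cells, was 3.03-fold higher, with 450 and 1162 reads and levels of 435 and 1321 (1.60, 1.44 to 1.76). Its interval did not overlap those of the other 3 B-restricted members, and it overlapped those of Fcgr1 and Fcgr4. The median log2 ratio of the 4 genes was 2.30, and their summed reads of 1792 and 6948 gave 2.19 (95% interval 2.11 to 2.26).

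The neonatal receptor gene Fcgrt had 208 reads in the control and 373 in the cKO library, levels of 201 and 424 (log2 ratio 1.07, 95% interval 0.83 to 1.33). Its interval overlapped those of Fcgr2b, Fcgr3, Fcer1g and Fcgr4 and lay below the intervals of the B-restricted members. Its partner B2m, which every nucleated cell expresses, had 23989 and 20723 reads (0.02), so the pair did not move by the same amount.

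**Figure D2:**
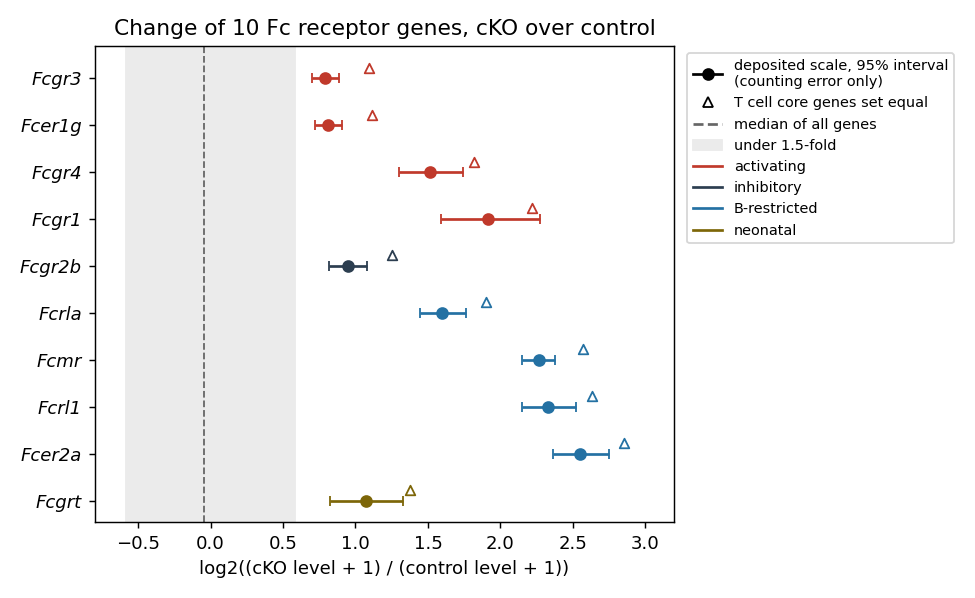
Log2 ratio of levels, cKO over control, for each gene (filled circles, deposited scale) with the exact 95% interval for counting error, and the same ratio after scaling to equal T cell core reads (open triangles). The grey band marks less than 1.5-fold and the dashed line the median of all genes (-0.04). All 10 circles lie right of the band, between 0.79 (Fcgr3) and 2.55 (Fcer2a).

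The classes differed from each other within a library. B-restricted reads per activating read went from 0.521 in the control to 1.26 in the cKO library (log2 change 1.28, 95% interval 1.18 to 1.37), and B-restricted reads per Fcgr2b read from 2.44 to 5.78 (1.24, 1.09 to 1.39). Of the members' reads in the control library, 55.7% were activating (95% interval 54.5 to 57.0), 29.0% B-restricted (27.9 to 30.2), 11.9% Fcgr2b (11.1 to 12.7) and 3.37% Fcgrt (2.93 to 3.85). In the cKO library 39.2% were activating (38.4 to 40.0), 49.5% B-restricted (48.7 to 50.4), 8.58% Fcgr2b (8.12 to 9.05) and 2.66% Fcgrt (2.40 to 2.94). The activating members thus held the largest share of the control library and the B-restricted members that of the cKO library.

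**Figure D3:**
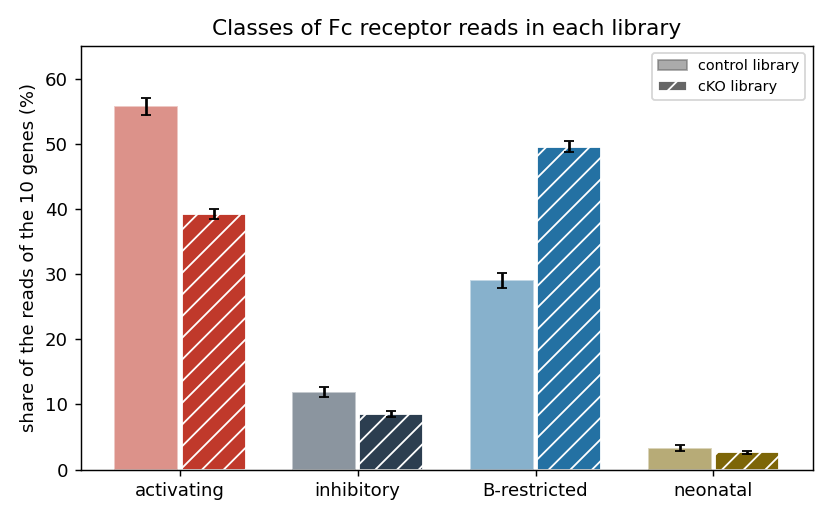
Share (%) of the reads of the 10 genes that belonged to each class, in the control library (pale bars) and the cKO library (hatched bars), with exact 95% binomial intervals. The B-restricted share was 29.0% in the control and 49.5% in the cKO library, and the activating share 55.7% and 39.2%.

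Levels were compared between genes per kilobase of the longest coding transcript. In the control library Fcer1g was the highest at a level of 2229 per kilobase, followed by Fcgr3 (1095), Fcmr (475), Fcrla (259), Fcgr2b (200.1), Fcgr4 (189), Fcrl1 (142), Fcer2a (114), Fcgrt (114) and Fcgr1 (35.9). The neighbours Fcgr2b and Fcgr4, and the neighbours Fcer2a and Fcgrt, did not differ beyond counting error. By the length of all exons together, however, Fcgr4 stood above Fcgr2b in the control library by 1.54 times (95% interval 1.33 to 1.78). In the cKO library the order per kilobase was Fcer1g (3914), Fcmr (2284), Fcgr3 (1894), Fcrla (787), Fcrl1 (716), Fcer2a (673), Fcgr4 (541), Fcgr2b (386), Fcgrt (240) and Fcgr1 (136), and only the neighbours Fcrl1 and Fcer2a did not differ beyond counting error, while by all exons Fcer2a stood above Fcrl1 by 1.22 times (1.13 to 1.32). Fcmr stood below Fcgr3 in the control library and above it in the cKO library, and Fcrl1 and Fcer2a moved from below Fcgr2b to above it, by either length. Per kilobase, the 3 activating receptors summed to 6.59 times Fcgr2b in the control and 6.66 times in the cKO library, and with the length of all exons together to 8.77 and 9.09 times. Fcer1g per kilobase was 1.69 and 1.52 times the sum of the 3 receptors it serves. How much of each order reflects the transcript isoforms present was not tested.

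The members were then set against markers of the cells known to carry them. All 12 B cell markers were past 1.5-fold on the higher side in the cKO library (17.2% of all genes were). Their median log2 ratio was 2.33, the most read being Pax5 (1065 and 7778 reads) and Cd37 (2391 and 3891 reads). B-restricted reads per B cell marker read were 0.162 in the control and 0.160 in the cKO library, and the interval of the log2 change (-0.10 to 0.07) included 0. That call depended on the markers summed. Pax5 had the highest ratio of the list (3.10), and without it the change was 0.12 (0.04 to 0.21). Cd37 had the lowest ratio (0.94), and the list was not run without it, so only 1 side of this dependence is shown. Per B cell marker read, Fcmr (log2 change 0.06, 95% interval -0.06 to 0.18) and Fcrl1 (0.13, -0.06 to 0.32) had intervals that included 0, but without Pax5 they were at 0.20 (0.08 to 0.32) and 0.27 (0.08 to 0.46). Fcer2a was higher per marker read in the cKO library (0.35, 0.16 to 0.55) and Fcrla was lower (-0.60, -0.76 to -0.44). Fcgr2b, which B cells share with myeloid cells, was lower per B cell marker read (-1.26, -1.39 to -1.12). Cr2, the complement receptor described as a partner of CD23, had 793 and 4307 reads (2.67), and Fcer2a reads per Cr2 read were 0.334 and 0.308 (log2 change -0.12, 95% interval -0.34 to 0.11). The plasma cell markers had 10941 and 10750 reads, with 2 of 6 at least 1.5-fold higher and a median of 0.16, and the joining chain gene Jchain had 34138 and 30035 reads (0.05). The part of the B cell markers in the members' ratios was not tested.

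All 17 macrophage markers passed 1.5-fold in the cKO library, each on the higher side, against 17.2% of all genes. Their median log2 ratio was 2.80, or 2.61 with Marco (0 and 20 reads) and Timd4 (0 and 89 reads) set to the bound that 3 control reads give. The most read markers were Csf1r (2197 and 4145 reads, log2 ratio 1.15) and Slc40a1 (1339 and 1960 reads, 0.78, the lowest of the list). Both lay below the median, and the summed marker reads gave 1.69. Per macrophage marker read, Fcgr1 (log2 change 0.23, 95% interval -0.10 to 0.58) and Fcgr4 (-0.17, -0.39 to 0.05) had intervals that included 0. Without Csf1r, Fcgr1 was at 0.0093 (-0.33 to 0.36) and Fcgr4 at -0.40 (-0.62 to -0.17), so that the call for Fcgr4 rested on this marker. The list was not run without Slc40a1, so how far the call for Fcgr1 depends on the markers summed was not tested. Fcgr3 (-0.90), Fcer1g (-0.88), Fcgr2b (-0.74) and Fcgrt (-0.61) were lower per macrophage marker read in the cKO library, each with an interval below 0. Of the 8 monocyte markers, led by Lyz2 and Itgam, 7 were at least 1.5-fold higher, with a median of 0.97 and 36655 and 53565 summed reads. Lyz2 (21710 and 33118 reads, log2 ratio 0.84) and Itgam (7733 and 10372 reads, 0.66) gave most of these reads, so the sum mainly follows them. Treml4 (1.51), Ace (1.46), Cd14 (1.12) and Cx3cr1 (1.10) had larger ratios, and Ccr2 (0.62) and Ly6c2 (0.32) smaller ones. Per monocyte marker read it was Fcgr3 (0.01, -0.09 to 0.11) and Fcer1g (0.03, -0.06 to 0.13) that had intervals including 0, while Fcgr2b (0.17) and Fcgrt (0.30) were higher, and Fcgr4 (0.74) and Fcgr1 (1.14) by more. Without Lyz2, Fcgr3 was at 0.11 (0.0066 to 0.21) and Fcer1g at 0.13 (0.03 to 0.22), intervals above 0. The order of the members is the same for every list, with or without a marker, because all are divided by the same marker sum. That order therefore adds nothing to the Fcgr1 and Fcgr4 reads per Fcgr3 read given above. The part of macrophages and monocytes in these ratios was not tested.

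Markers of the other cell types were mixed, and several lists had shares near the 17.2% of all genes that were at least 1.5-fold higher. Of the 16 T cell core genes 2 were at least 1.5-fold lower and 0 higher (median -0.28). That share of lower genes is under the 24.2% of all genes. Of the 12 neutrophil markers 3 were at least 1.5-fold higher and 1 lower (median 0.45), and per neutrophil marker read all 6 members compared were higher in the cKO library, from 0.34 for Fcgr3 to 1.47 for Fcgr1. Of the 8 NK cell markers, led by Gzma and Nkg7, 4 were at least 1.5-fold higher (median 0.49, 4309 and 5312 reads). The 8 dendritic cell markers had 2 higher (median 0.24), the 4 eosinophil markers 1 higher and 2 lower, and the 12 Treg markers 2 higher and 2 lower (median 0.20, 10054 and 9696 reads). The part of these cells in the ratios of Fcgr3, Fcer1g and Fcgr2b was not tested.

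**Figure D4:**
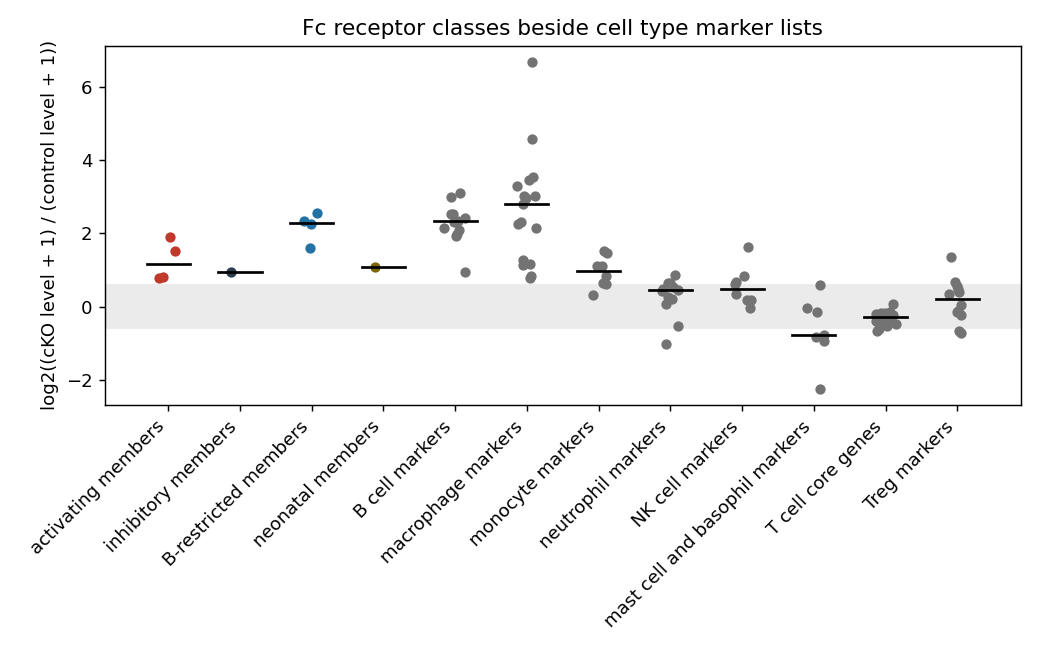
Log2 ratio of levels, cKO over control, for every member of each Fc receptor class (coloured) and every gene of 8 cell type marker lists (grey points), with black lines at the medians and a grey band for less than 1.5-fold. The B-restricted members (median 2.30) lie at the height of the B cell markers (2.33), and the T cell core genes (-0.28) lie below 0. Marco and Timd4, the 2 highest macrophage markers, had 0 control reads.

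**Figure D5:**
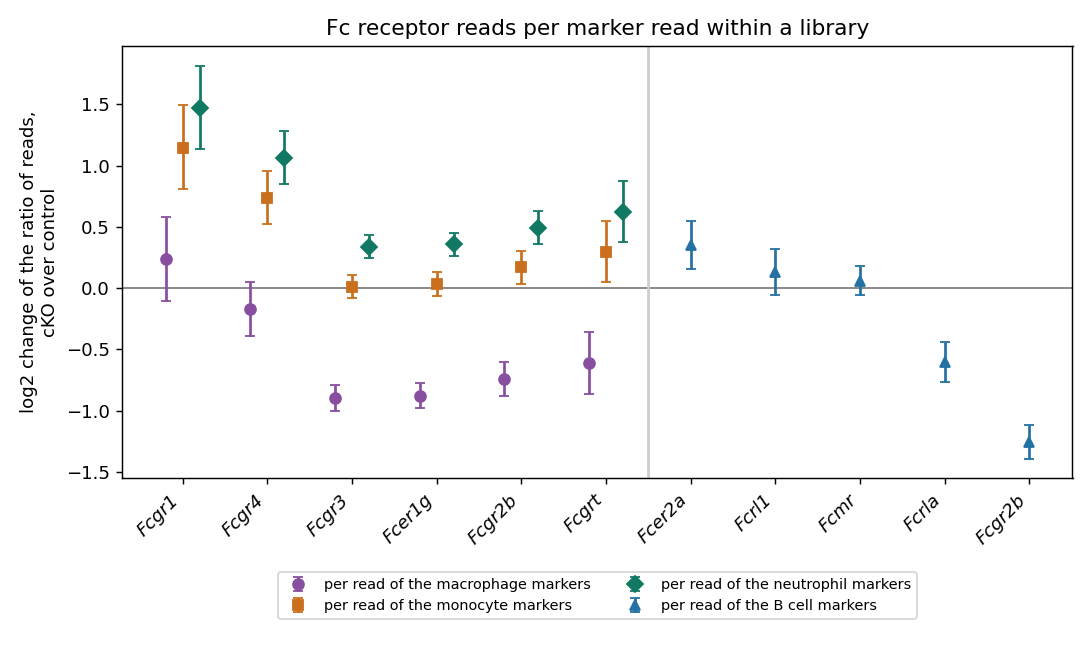
Log2 change, cKO over control, of reads of a member per read of a marker list within the same library, with exact 95% intervals for counting error. Left of the line are the members of myeloid cells per macrophage, monocyte and neutrophil marker read, and right of it members per B cell marker read. Per macrophage marker read Fcgr1 (0.23) and Fcgr4 (-0.17) lie highest, per monocyte marker read Fcgr3 (0.01) and Fcer1g (0.03) lie lowest, and per B cell marker read Fcgr2b (-1.26) lies lowest.

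Of 10 further Fc receptor genes, 8 passed the filter, of which 2 were at least 1.5-fold higher and 3 lower. Over all genes these shares were 17.2% and 24.2%. Fcrl5, a B cell Fc receptor-like gene, had 148 and 756 reads (log2 ratio 2.58, 95% interval 2.33 to 2.85), and Fcrl5 reads per Fcrl1 read were 0.509 and 0.606 (log2 change 0.25, 95% interval -0.07 to 0.58). Pigr, which carries IgA and IgM across epithelia, had 9 and 48 reads (2.52, 1.61 to 3.86). The chains of the high-affinity IgE receptor of mast cells and basophils were lower on the deposited scale, Fcer1a with 123 and 68 reads (-0.62, -1.07 to -0.18), at least 1.5-fold lower, and Ms4a2 with 206 and 155 reads (-0.18, -0.49 to 0.13). Scaled to equal T cell core reads, they were at -0.31 and 0.13, so that neither passed 1.5-fold and Ms4a2 turned direction. These 2 genes use the same Fc gamma chain as the IgG receptors, and their summed reads per Fcer1g read went from 0.209 to 0.0949 (log2 change -1.14, 95% interval -1.41 to -0.87). Per read of the 7 mast cell and basophil markers, which had 7051 and 5167 reads with 1 at least 1.5-fold higher and 4 lower, the interval of their change included 0 (-0.11, -0.37 to 0.14). Fcamr, a receptor for IgA and IgM, had 44 and 42 reads (0.16), and Trim21, the cytosolic antibody receptor, 928 and 858 reads (0.12). The other 2 counted as lower were Fcrl6 (5 and 0 reads) and Fcrlb (6 and 0 reads), too few to give a ratio, and Fcrls and Fcgbp were at 0 in both libraries.

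Receptors other than Fc receptors that pair with the Fc gamma chain were also higher. Clec4e had 688 and 953 reads (log2 ratio 0.70), Clec4d 510 and 680 reads (0.65) and Clec4n 37 and 144 reads (2.16). All are C-type lectin receptors of myeloid cells, and 3 of 3 past the filter were at least 1.5-fold higher (17.2% of all genes were). Oscar and Gp6 did not pass the filter. Among 5 ligands and partners in the tables, Adam10, the protease that sheds CD23, had 4937 and 3603 reads (-0.22), and Apcs was at 0 in both libraries. The 8 immunoglobulin heavy chain genes of that list were not analysed here.

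Downstream of the receptors, the kinases and adaptors of ITAM signalling were mostly higher, with 10 of 14 at least 1.5-fold higher (17.2% of all genes were), 0 lower and a median log2 ratio of 0.77. Syk, the kinase recruited by the Fc gamma chain, had 5385 and 11280 reads (1.30), Lyn, the kinase that phosphorylates its motif, 4030 and 7698 reads (1.17), and the adaptor gene Lcp2 5024 and 4701 reads (0.14). The lowest was Cd247, the zeta chain of the T cell receptor, with 3014 and 1720 reads (-0.58). Of 14 downstream effectors 5 were at least 1.5-fold higher, against that 17.2%, and 0 lower, with a median of 0.50. They included Prkcb, a protein kinase C of B cells (3575 and 9253 reads, 1.60), and Cybb, the phagocyte oxidase subunit (9356 and 13694 reads, 0.78), while Rac2 (10236 and 11558 reads, 0.41), Pik3cd (9619 and 10338 reads, 0.34) and Plcg1 (3815 and 3220 reads, -0.01) lay within 1.5-fold. Of 9 phosphatases and adaptors on the inhibitory side 2 were at least 1.5-fold higher, a share near the 17.2% of all genes, and 0 lower, with a median of 0.31. Inpp5d, the phosphatase recruited by Fcgr2b, had 4505 and 6488 reads (0.76) and the adaptor gene Dok3 1156 and 2646 reads (1.43). Ptpn6 (7001 and 8132 reads, 0.45), Cbl (6057 and 6369 reads, 0.31) and Dok2 (842 and 645 reads, -0.15) lay within 1.5-fold.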

How the data were processed

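RNA from splenic Treg cells was sequenced in 2 libraries, 1 per genotype. The deposited values are a signal, reads per gene divided by a size factor of the library. The study's methods name TopHat and mm10, and the submitters' processing notes name bcl2fastq 2.0, STAR, StringTie and DESeq2. The order of these steps and the source of the size factor were not given in the sources used here. Every value was a whole multiple of the smallest above 0 in its library (100% within 0.01 reads). That smallest value was therefore taken as 1 read, which could not be checked against the raw data. All read counts and their intervals rest on this. Depth was 20239325 and 18327535 reads, and 3 reads correspond to levels of 2.90 and 3.41.

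Ratios were log2(level + 1) differences for genes averaging a level of 1 or more. Intervals were exact at 95%. They were Clopper-Pearson intervals for level ratios, shares and the order of levels, and conditional odds ratio intervals for ratios of reads compared between libraries. The 1.5-fold threshold is that of the study. Alternatives were other pseudocounts, scalings, filters and thresholds, an exact binomial test on the recovered reads (2085 genes higher, 2665 lower) and an exact test in edgeR 4.0.16 with an assumed coefficient of variation (229 higher, 569 lower), with DESeq2 1.42.0 for 1 scaling, in R 4.3.3 and Python 3.11.15. The procedures were tested on simulated reads that held counting error only and few changed genes. They were not checked on data with spread between libraries or with as many changed genes as here. Positions and lengths came from GENCODE vM21, which matched 20516 of the 20938 symbols, and promoters from RefSeq (GRCm38.p6).

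Named with values were the 10 members, other Fc receptor genes with at least 10 reads, Mettl14 and Foxp3. So were the 3 most read genes and the highest and lowest ratio of each signalling list. The 2 most read markers were given with values for the B cell, macrophage and monocyte lists. For the neutrophil, NK cell and T cell core lists they were named without values, and for the remaining marker lists they were not named. Other genes (Fcrl6, Fcrlb, Marco, Timd4, the other monocyte markers, the remaining ligands and gamma chain partners) were named after their values were seen. Members and lists were chosen with earlier results of these data known.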

Additional observations from a re-analysis of the deposited data

How the results depend on the processing

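No paired analysis was possible because there was 1 library for each genotype, which also leaves no replicate to omit. No alternative turned the direction of a member. Of the comparisons' alternatives 48 stayed within the set margin and 17 did not, and of the single members' alternatives 51 did and 9 did not, all 9 under scaling to equal T cell core reads. That scaling gave 4713 genes higher, and medians of 1.47 for the activating and 2.60 for the B-restricted members and 1.25 for Fcgr2b. A 2-fold threshold gave 1722 genes higher. Genes lower numbered 2035 with a minimum mean level of 10, 1904 with only genes above 0 in both libraries and 2665 by the binomial test. edgeR with an assumed coefficient of variation of 0.4 called 229 genes higher, 569 lower and 1 member, an assumed spread far wider than counting error. The summed activating levels gave 0.91 in place of the median. Activating reads per macrophage marker read changed by -0.70 without Fcer1g and by -1.004 without Csf1r. Without Csf1r, Fcgr2b per macrophage marker read changed by -0.97, and without Pax5, Fcgr2b per B cell marker read by -1.12 and B-restricted reads per B cell marker read by 0.12 in place of -0.02. Chosen after the data were seen, leaving out the most read marker of a list ended an interval that included 0 for Fcmr and Fcrl1 (Pax5), Fcgr4 (Csf1r), Fcgr3 and Fcer1g (Lyz2), and for the summed B-restricted reads, whose interval was then 0.04 to 0.21. The order of levels by the length of all exons was also added after the data were seen. The causes of these shifts were not tested. Depth limits Fcgr1 most, with 96 control reads.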

Other observations

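The signalling chains of Fc receptors and of the T cell receptor moved in opposite directions. These ratios were chosen after the values were seen. Fcer1g reads per Cd247 read went from 0.522 in the control to 1.37 in the cKO library (log2 change 1.39, exact 95% interval for counting error 1.26 to 1.52), and Tyrobp, the related adaptor of myeloid and NK cells, changed per Cd247 read by 1.28 (1.16 to 1.40). Fcer1g reads per Tyrobp read were 0.756 and 0.816, and the interval of their change (-0.01 to 0.23) included 0. The kinases that serve the chains followed the same order, with 2.78 and 8.04 Syk reads per read of Zap70, the kinase of the T cell receptor (1.53, 1.42 to 1.64), and 0.728 and 1.90 Lyn reads per read of Lck (1.38, 1.30 to 1.47). On the inhibitory side, Inpp5d reads per Syk read went from 0.837 to 0.575 (-0.54, -0.61 to -0.47).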
